A study of Mus musculus with 5 samples.

Results

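The genes described here are 9 transcription factor genes of the early neural ectoderm, Sox1, Sox3, Sox11, Pax6, Otx2, Pou3f1, Zic1, Zic2 and Zic5, together with Nes, which encodes the intermediate filament protein nestin. They were followed through the fusion of mouse embryonic stem (ES) cells with hepatoma cells and through differentiation of the hybrids. The members were the gene probes of the array whose accession mapped to one of these 10 genes. Of the 10 genes, 9 had a probe and 15 probes were found in all, against 18300 genes and 26888 probes that could be named on the array. No probe mapped to Sox3, so its level was not analysed here. All 9 measured genes were well above background on at least 1 array, which was the case for 15428 of the named genes.

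Expression was measured on 5 one-colour Agilent arrays, 1 per condition. ES was the line E14. EHe were hybrids made by fusing E14 cells that carried a red fluorescent reporter and hygromycin resistance with Hepa1-6, a mouse hepatoma line that carried green fluorescent protein and neomycin resistance, so that EHe and everything derived from it held both selection cassettes. EHeD7 and EHeD14 were, by their labels, EHe differentiated for 7 and 14 days, and Hepa1-6 was the hepatoma parent. By the labels, ES and EHe were grown with 10% serum replacement, 1% fetal serum and 1000 units/ml leukemia inhibitory factor, Hepa1-6 with 10% fetal calf serum, and the differentiating hybrids on gelatin with 15% fetal calf serum and no named cytokine, whereas the methods of the study describe differentiation in embryoid bodies. Medium and differentiation therefore changed together and cannot be told apart. Colonies of hybrids were picked singly, and which colony gave each RNA is not given in the sources used here. Hepa1-6 was hybridized on another slide than the other 4 arrays, so the slide and the line cannot be told apart.

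These factors act in sequence when pluripotent cells turn into neural tissue. Otx2 and Pou3f1 (Oct6) are homeodomain and POU-domain factors that come on as naive ES cells pass into a primed, epiblast-like state, and both are used again in the anterior neural plate. Sox1 and Sox3 belong to the SoxB1 group that holds cells in a neural progenitor state, Pax6 is a paired-box factor of forebrain and eye progenitors, the Zic genes encode zinc-finger factors of the neural plate and dorsal neural tube, and Sox11, a SoxC factor, is raised in committed neural precursors. Nestin is the filament by which neural stem cells are usually recognised, although it is also made in other dividing precursors.

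A level below is the log2 of the processed signal minus the 75th percentile of that array, so that 0 is the brightness at the 75th percentile of all probes. The 75th percentile corresponded to a signal of 1073 on the ES array, 1281 for EHe, 1288 for EHeD7, 1310 for EHeD14 and 1395 for Hepa1-6. The lowest level at which a probe was called well above background was -5.40 on the ES array, -4.83 for EHe, -6.14 and -5.53 for EHeD7 and EHeD14, and -5.24 for Hepa1-6, so a weak transcript was harder to see in EHe than in the other arrays. Nes, Otx2 and 1 probe of Pax6 were printed 10 times per array and carry an SD between spots. The others were printed once and carry the error estimated by the scanner software. Both measure the array, not the spread between cultures, which 1 array per condition does not give, so no difference was tested and a gene is called higher or lower only where it differs by more than 3-fold and is well above background on at least 1 of the 2 arrays. Where it is not well above background (dim) on the other array, the fold is a lower bound taken at the detection limit or at its own signal, whichever is higher. Each value comes from a bulk culture, in which fewer expressing cells and less RNA per cell cannot be told apart.

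Markers of the lines were read before the members. Albumin (Alb) was at 6.12 and alpha-fetoprotein (Afp) at 6.83 in Hepa1-6, while Alb was not well above background on any other array. Afp was at -4.00 in ES and dim in all 3 hybrid arrays. The hepatocyte markers Ttr and Apoa1 were dim even in Hepa1-6. The pluripotency factor Pou5f1 was at 3.77 in ES and 4.06 in EHe, and remained at 4.43 in EHeD7 and 4.20 in EHeD14. The Y-linked genes Eif2s3y and Ddx3y, named after their values were seen, were at -3.84 and -5.27 in ES by their main probes and at -0.71 and -2.46 in EHe, but neither was well above background in EHeD7, EHeD14 or Hepa1-6. EHe and the differentiated hybrids thus differed in the signal of these genes as well as in differentiation, and the part of this in the differences described for EHe was not tested. Whether EHeD7 and EHeD14 came from the same colony as the EHe array was not tested either, so in each comparison with EHe below a difference between colonies and differentiation cannot be told apart. A second Ddx3y probe was dim on every array, and the Y-linked Kdm5d was at -4.75 in ES and dim on the other 4 arrays. Xist was well above background in Hepa1-6 only, where its main probe was at 2.12.

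**Figure D1:**
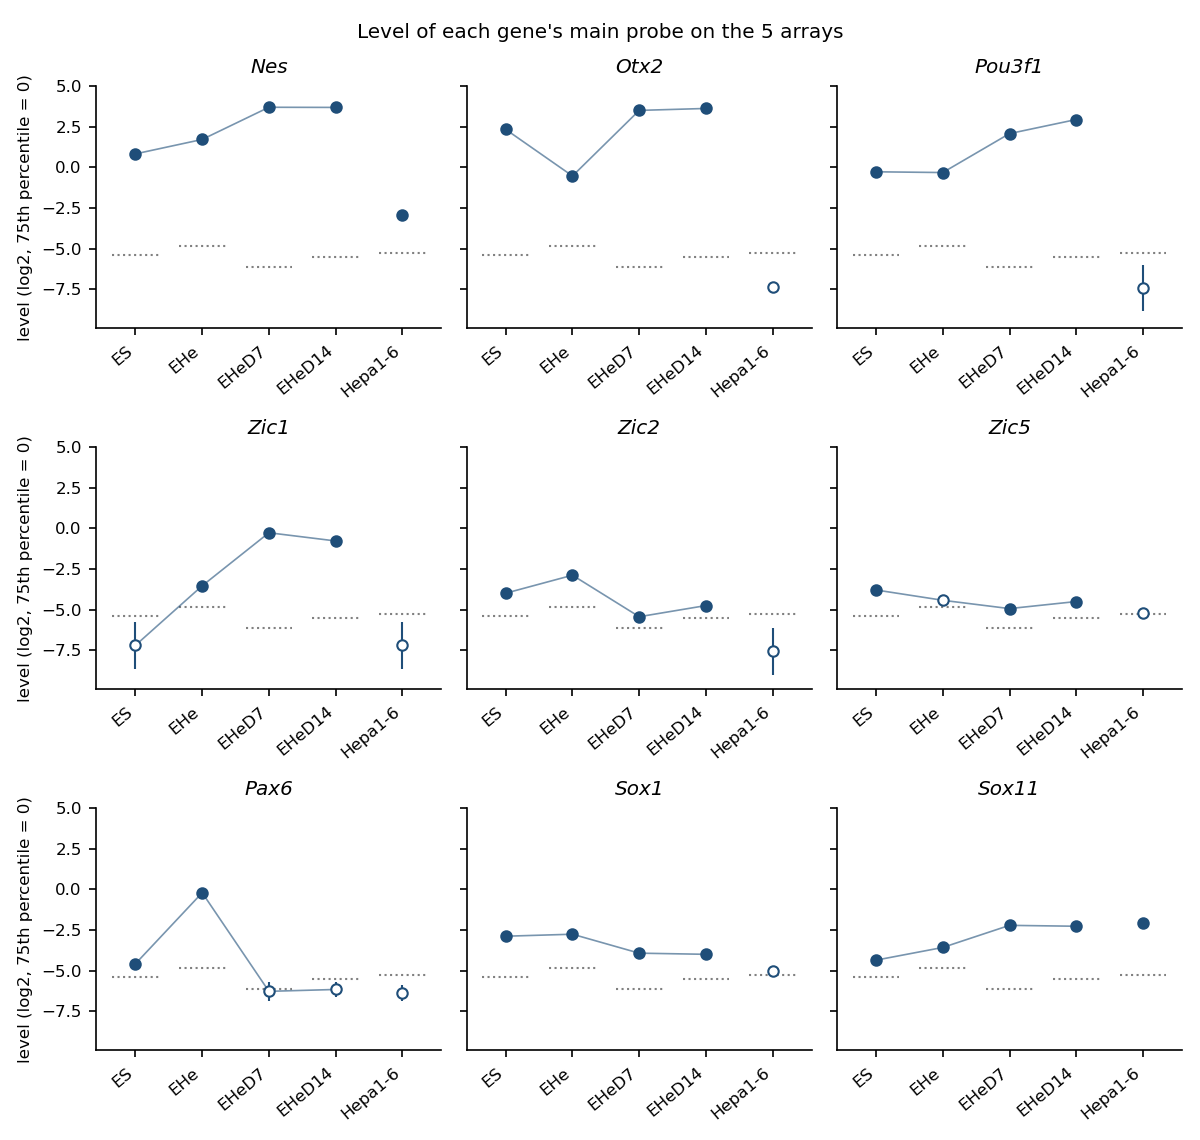
Level of the main probe of each measured gene (vertical axis, log2 with the 75th percentile of the array at 0) in the 5 conditions (horizontal axis). Filled points were well above background, open points were not, dotted lines mark the detection limit of each array, and bars are the SD of repeat spots or the scanner software's error. Nes, Otx2, Pou3f1 and Zic1 were highest in the differentiated hybrids, Pax6 stood out in EHe alone, and the other genes spanned a narrower range.

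Nestin, the filament protein, was well above background everywhere. Its level was 0.83 ± 0.07 in ES (SD, n = 10 spots), 1.71 ± 0.07 in EHe, 3.69 ± 0.06 after 7 days, 3.68 ± 0.11 after 14 days and -2.93 ± 0.13 in Hepa1-6. The differentiated hybrids were the highest arrays and the hepatoma the lowest. Nes was 3.94-fold higher in EHeD7 and 3.92-fold higher in EHeD14 than in EHe, 7.24-fold higher in EHeD14 than in ES and 97.9-fold higher in EHeD14 than in Hepa1-6. EHe exceeded ES by 1.85-fold, short of the 3-fold call.

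Otx2 showed a dip in the hybrid before its rise. Its level was 2.33 ± 0.08 in ES, -0.53 ± 0.14 in EHe, 3.50 ± 0.07 in EHeD7 and 3.62 ± 0.12 in EHeD14 (SD, n = 10 spots each), and it was not well above background in Hepa1-6. EHe was thus 7.27-fold lower than ES, and EHeD7 and EHeD14 were 16.4-fold and 17.8-fold higher than EHe. Against ES, EHeD14 was 2.44-fold higher. The Hepa1-6 array was at least 190-fold lower than ES.

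Pou3f1 was at the same height in both undifferentiated lines, -0.27 ± 0.14 in ES and -0.32 ± 0.15 in EHe (software error of 1 spot). It was at 2.07 ± 0.14 in EHeD7 and 2.94 ± 0.14 in EHeD14 and was not well above background in Hepa1-6. This made it 5.26-fold higher at 7 days and 9.58-fold higher at 14 days than EHe, with EHeD14 1.82-fold above EHeD7. Of the 4 genes past 3-fold upward, it was the one with the largest step between the days.

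Zic1 was not measurable in either parent line. The main probe read -3.53 ± 0.20 in EHe, -0.27 ± 0.14 in EHeD7 and -0.78 ± 0.14 in EHeD14, and was dim in ES and Hepa1-6. EHe was at least 3.65-fold above ES, EHeD7 was 9.59-fold and EHeD14 6.76-fold above EHe. The second probe of the gene gave 9.38-fold and 6.04-fold for the same comparisons and at least 3.28-fold for EHe over ES, so both probes told the same order.

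The relatives Zic2 and Zic5, which lie head to head as neighbours in the RefSeq gene order, did not follow Zic1. Zic2 was at -3.99 ± 0.19 in ES, -2.88 ± 0.17 in EHe, -5.43 ± 0.23 after 7 days and -4.75 ± 0.22 after 14 days and was dim in Hepa1-6. It was highest in EHe, and 5.87-fold lower at 7 days and 3.65-fold lower at 14 days. Zic5 was at -3.79 ± 0.20 in ES, -4.93 ± 0.21 in EHeD7 and -4.50 ± 0.24 in EHeD14, and in EHe and Hepa1-6 its spot was not well above background. Its highest level was that of ES, and none of its differences passed 3-fold.

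Pax6 was the member with the sharpest peak in EHe. The repeated probe was at -4.58 ± 0.16 in ES and -0.21 ± 0.07 in EHe (SD, n = 9 spots after 1 outlier was left out on each array). In EHeD7 4 of its 10 spots were well above background, and in EHeD14 and Hepa1-6 none was. EHe was 20.6-fold above ES, and EHeD7 and EHeD14 were at least 60.8-fold and at least 39.9-fold below EHe. The second Pax6 probe was not well above background on any array, so the EHe signal rests on 1 of the 2 probes.

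Sox1, the earliest of the SoxB1 factors to be specific to neural ectoderm, did not pass 3-fold among the ES-derived arrays. It was at -2.88 ± 0.16 in ES, -2.76 ± 0.17 in EHe, -3.92 ± 0.16 after 7 days and -3.99 ± 0.19 after 14 days, and dim in Hepa1-6. The differentiated hybrids were the lower pair, 2.24-fold and 2.35-fold below EHe.

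Sox11 was measured by 5 probes that disagreed. The main probe, chosen because it was well above background on all 5 arrays, was at -4.35 ± 0.24 in ES, -3.57 ± 0.22 in EHe, -2.21 ± 0.15 after 7 days, -2.27 ± 0.15 after 14 days and -2.08 ± 0.15 in Hepa1-6, and put EHeD14 2.47-fold above EHe. The other 4 probes were dim in ES and Hepa1-6 and well above background in EHe and both differentiated arrays. On them EHeD14 exceeded EHe by 4.04-fold, 4.87-fold, 5.77-fold and 6.38-fold, each past the 3-fold call, and exceeded ES by at least 13.4-fold to at least 29.3-fold. Day 7 and day 14 lay within 1.17-fold of each other on every one of the 5 probes. A signal in Hepa1-6 was therefore seen by 1 probe of 5, and counts that include Sox11 are given by the main probe unless stated.

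**Figure D2:**
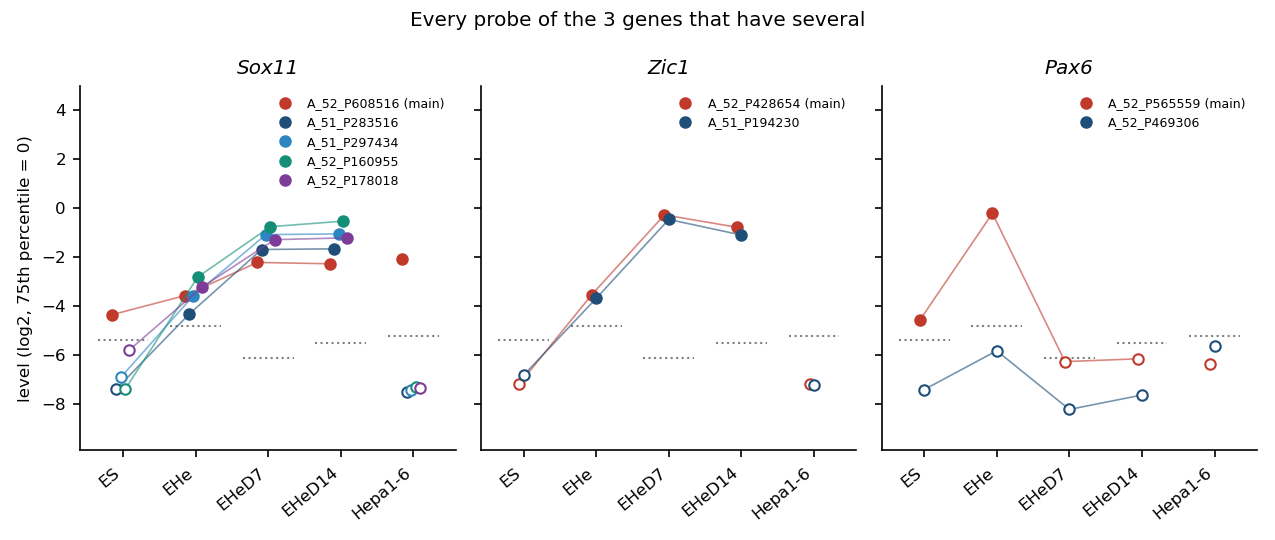
Level (log2, 75th percentile at 0) of every probe of Sox11, Zic1 and Pax6 in the 5 conditions. Filled points were well above background and dotted lines are detection limits. The main Sox11 probe, in red, stayed at -2.08 in Hepa1-6 where the other 4 were dim, both Zic1 probes ran together, and the second Pax6 probe was dim throughout.

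The start regions of 4 members that were called on differentiation or fusion are shown with that of Sox1 as reference sequence. No binding or methylation was measured at them. RefSeq promoters (GRCm38.p6, 250 bases before to 50 after a start) were matched by symbol for Nes, Otx2, Zic1, Pax6, Sox1, Sox11 and Zic5, 7 members with 11 starts. Capitals mark a match, on either strand, to the POU octamer ATGCAAAT, the SOX core ACAATG or the OTX core TAATCC, motifs chosen after the levels had been seen. Among 32851 promoters of this length, 1.74% held the octamer, 12.6% the SOX core and 7.06% the OTX core.
Nes, chr3:87970843-87971142, plus strand: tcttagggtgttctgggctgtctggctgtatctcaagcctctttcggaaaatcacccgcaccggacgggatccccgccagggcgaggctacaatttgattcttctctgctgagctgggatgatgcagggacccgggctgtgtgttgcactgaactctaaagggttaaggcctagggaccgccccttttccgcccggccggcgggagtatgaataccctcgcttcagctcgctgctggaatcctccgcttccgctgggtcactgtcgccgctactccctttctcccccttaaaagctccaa
Otx2, 1 of 4 starts, chr14:48665060-48665359, minus strand: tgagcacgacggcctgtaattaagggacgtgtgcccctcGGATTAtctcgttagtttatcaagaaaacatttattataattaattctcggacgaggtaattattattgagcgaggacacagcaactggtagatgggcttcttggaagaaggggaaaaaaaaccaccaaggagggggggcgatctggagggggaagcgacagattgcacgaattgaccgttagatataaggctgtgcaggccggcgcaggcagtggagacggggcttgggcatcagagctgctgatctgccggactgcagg
Zic1, chr9:91365719-91366018, minus strand: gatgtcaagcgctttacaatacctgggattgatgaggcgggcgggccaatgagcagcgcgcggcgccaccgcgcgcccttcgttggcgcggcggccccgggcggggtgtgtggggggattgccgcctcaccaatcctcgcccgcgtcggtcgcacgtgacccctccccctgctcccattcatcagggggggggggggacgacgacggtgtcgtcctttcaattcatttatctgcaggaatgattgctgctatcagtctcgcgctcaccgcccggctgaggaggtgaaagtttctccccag
Pax6, 1 of 2 starts, chr2:105668646-105668945, plus strand: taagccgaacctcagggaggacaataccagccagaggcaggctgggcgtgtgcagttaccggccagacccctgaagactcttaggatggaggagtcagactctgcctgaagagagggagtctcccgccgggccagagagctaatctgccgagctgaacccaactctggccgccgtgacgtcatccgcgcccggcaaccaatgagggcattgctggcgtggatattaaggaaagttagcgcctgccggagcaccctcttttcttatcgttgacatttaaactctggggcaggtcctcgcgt
Sox1, chr8:12395269-12395568, plus strand: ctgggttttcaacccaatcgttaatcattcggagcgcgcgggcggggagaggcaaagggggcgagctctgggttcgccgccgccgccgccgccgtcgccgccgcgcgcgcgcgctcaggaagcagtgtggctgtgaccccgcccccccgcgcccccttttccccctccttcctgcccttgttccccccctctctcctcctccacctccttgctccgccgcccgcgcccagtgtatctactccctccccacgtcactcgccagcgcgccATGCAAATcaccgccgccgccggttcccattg
The Otx2 start shown held 1 OTX core, and the promoter of Sox1 held 1 octamer. None of the other 9 starts held any of the 3 motifs, which says only that these letters are not in the windows. The number of CpG dinucleotides was 37 for Sox1, 31 for Zic1, 21 for Sox11, 18 for Nes, 15 for Zic5, 18 and 16 for the starts of Pax6 and 16, 11, 8 and 6 for those of Otx2, the one shown being the first of these. The median over all promoters was 7.

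In EHe against ES, 2 of the 9 measured genes were higher, Pax6 and Zic1, and 1 was lower, Otx2. The call of Zic1 was lost with normexp background correction, which gave 0.78 on the log2 scale. Of all 15428 genes, 2.68% were higher and 5.68% lower by the same rule. The median difference over the members was 0.78 on the log2 scale, which is the value of the main Sox11 probe, and over all genes -0.15. With Sox11 read by its other 4 probes, EHe was higher for 3 members. Of 78 measurable genes of the neural and epiblast lists described below, 9 were higher in EHe and 6 lower, with a median of -0.03. Among these calls, those of Cdh2 (higher), Otx1 and Fgf5 (both lower) rest on a dim signal on 1 array. Their bounds were only 1.78-fold, 1.28-fold and 1.21-fold.

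In EHeD7 against EHe, 4 members were higher (Nes, Otx2, Pou3f1 and Zic1) and 2 lower (Pax6 and Zic2), where 9.48% of all genes were higher and 4.12% lower. The same counts, of the same genes, held in EHeD14 against EHe, where 9.71% of all genes were higher and 4.76% lower and where the median was 1.30 over the members and -0.03 over all genes. That member median is the value of the main Sox11 probe, so it depends on the probe chosen. Sox11 was not called by its main probe, but its other 4 probes were 3.84-fold to 6.26-fold higher in EHeD7 and 4.04-fold to 6.38-fold higher in EHeD14 than in EHe, which makes 5 members higher on each day. With normexp the calls of Zic2 were lost on both days, at -0.97 and -0.83. Both comparisons use the 1 EHe array, so they are not independent of each other or of EHe against ES. Between the days, EHeD14 against EHeD7, no member passed 3-fold in either direction, nor did any at 2-fold, and no test could be made, while 0.758% of all genes were higher and 1.17% lower.

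Measured from ES instead, EHeD14 was higher for 4 members (Sox11, Nes, Pou3f1 and Zic1) and lower for none, with 8.98% of all genes higher and 7.72% lower. Here Otx2, Zic2 and Pax6, called against EHe, were not called. Pax6 was dim in EHeD14, so that it was lower than ES by at least 1.94-fold. Its difference of -1.58 on the log2 scale, taken from the dim signal, lay at the edge of the call. Against Hepa1-6, EHeD14 was higher for 5 members (Nes, Otx2, Pou3f1, Zic1 and Zic2) and lower for none, with 22.2% of all genes higher and 13.3% lower, although Zic2 is bounded only at 1.41-fold or more. Sox11 was not called by its main probe, but by its other 4 probes EHeD14 was at least 12.0-fold to at least 26.3-fold above Hepa1-6, which makes 6 members higher. Hepa1-6 itself was lower than ES for 6 members (Sox1, Pax6, Nes, Otx2, Pou3f1 and Zic2) and higher for 1, Sox11 by its main probe, with 14.4% of all genes higher and 25.7% lower. The bounds for Pax6 and Zic2 in that comparison were at least 1.59-fold and at least 2.39-fold. Comparisons with Hepa1-6 depended on the scaling. With arrays centred on their median, the share of calls that were higher went from 35.9% to 56.3% for Hepa1-6 against ES and from 62.6% to 40.7% for EHeD14 against Hepa1-6, and 4 members in place of 6 were lower in Hepa1-6 than in ES. With normexp 3 were lower and 0 higher, the calls of Sox1, Pax6, Zic2 and Sox11 being lost.

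**Figure D3:**
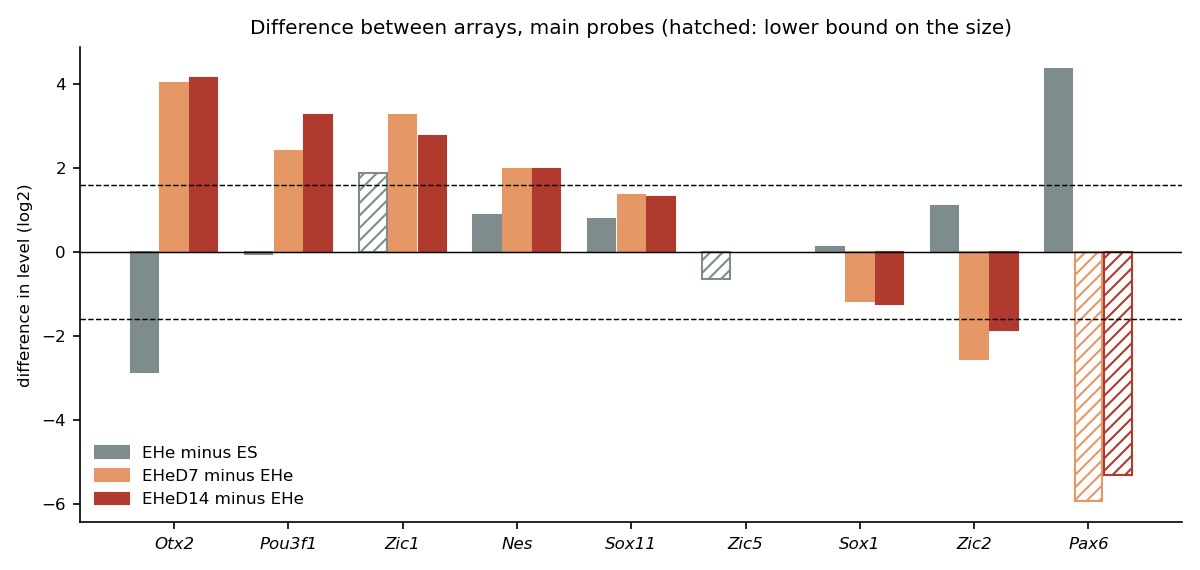
Difference in level (vertical axis, log2) of each measured gene for EHe minus ES (grey), EHeD7 minus EHe (orange) and EHeD14 minus EHe (red), main probes. Hatched bars are lower bounds on the size, dashed lines mark 3-fold, and a missing bar means that no fold can be given. Otx2 and Pax6 differ in opposite directions in EHe against ES, and again in the differentiated hybrids against EHe.

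The relatives of the members were read next. Of 16 other Sox genes, 15 were well above background somewhere, and in EHeD14 against EHe 3 were higher and 1 lower. Sox10, a neural crest and glial factor, was 6.41-fold higher, going from -2.53 in EHe to 0.15 in EHeD14. Sox17, an endoderm factor, was 4.74-fold higher, but it was at -1.25 in ES, -3.95 in EHe and -1.71 in EHeD14, so that EHeD14 was not called against ES. Sox6 was called on its measured signals, but against the detection limit of EHe it has no fold. Sox2, shared by pluripotent and neural progenitor cells, was 4.44-fold lower, from 3.48 in EHe to 1.33 in EHeD14, and had been at 3.38 in ES. Sox9 was at 2.30 in Hepa1-6 and dim on the other 4 arrays. Zic4, the neighbour of Zic1, was dim everywhere. Pou3f3 was 8.72-fold higher in EHeD14 than in EHe, while Pou3f4 was dim on all arrays. Of 8 other Pax genes, 4 were measurable. Pax7 alone was called, from a dim signal in EHe to -4.76 in EHeD14, a bound of only 1.05-fold, and Pax3, Pax4, Pax5 and Pax8 were dim throughout.

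Nestin assembles with other filament proteins, and of these 8 were measurable. In EHeD14 against EHe 4 were higher and 1 lower, with a median of 1.06. The neurofilament light chain gene Nefl was 11.8-fold higher, from 1.40 to 4.95, and the medium chain gene Nefm at least 25.1-fold higher, reaching -0.18. Synm (synemin) was 7.79-fold and Des (desmin, a muscle filament) 4.40-fold higher. Against ES, EHeD14 was again called higher for Nefl, Nefm and Synm, but not for Des (2.75-fold). The heavy chain gene Nefh was 4.45-fold lower, and Vim (vimentin) differed by 2.57-fold, downward and short of the call. In EHeD7, at 3.54 against 5.32 in EHe, Vim was called lower. The glial filament gene Gfap was dim in EHe and EHeD14. Prph (peripherin) was 3.90-fold higher in EHe than in ES. It was at -0.77 in EHeD14, called higher against ES and not called against EHe.

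Genes that mark positions along the neural tube were mostly dim. Of 10 anterior genes with a probe, 4 were measurable, and in EHeD14 against EHe 1 was higher and 2 lower. Lhx2 was 8.46-fold lower and Lhx5 at least 2.61-fold lower, while Otx1, the close relative of Otx2, was at least 2.63-fold higher. The forebrain genes Six3, Six6, Fezf1, Fezf2, Dlx2 and Nkx2-1 were dim on every array. Of 15 midbrain, hindbrain and spinal genes 8 were measurable, and 2 were higher (Nkx6-1, 4.20-fold, and Pax7) and 2 lower. Nkx6-1 was at -2.41 in ES, -4.17 in EHe and -2.10 in EHeD14. Against ES, neither Nkx6-1 nor Pax7 was called in EHeD14, nor was any gene of the anterior list. En2 was 12.0-fold lower, and Gbx2, which opposes Otx2 at the midbrain-hindbrain border and is also expressed in ES cells, went from 2.18 in EHe to a dim signal in EHeD14, at least 206-fold lower.

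The neural progenitor list held 16 measurable genes. In EHeD14 against EHe 3 were higher, Slc1a3 (10.8-fold), Prom1 (10.2-fold) and Fabp7 (at least 2.60-fold), known from neural progenitors and radial glia, and 1 was lower, Sox2. Between ES and EHe, 3 genes of the list were higher in EHe (Hes5, Zeb2 and Cdh2, the last at least 1.78-fold) and 1 was lower. That gene was Slc1a3, at -0.70 in ES and -2.75 in EHe, 4.16-fold lower, and its 0.69 in EHeD14 was not called against ES. The Notch effector Hes5 was at -4.13 in ES and at 2.12, 2.20 and 2.16 in EHe, EHeD7 and EHeD14, 75.8-fold higher in EHe than in ES and dim in Hepa1-6. Zeb2 was dim in ES, at 0.15 in EHe, 0.36 in EHeD7 and 0.65 in EHeD14, at least 46.8-fold higher in EHe than in ES. It was at -0.30 in Hepa1-6, so only for Hes5 was the EHe level above that of both parents by more than 3-fold. Neither gene passed 3-fold on differentiation.

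Of 14 measurable proneural and neuronal genes none was higher in EHeD14 than in EHe, 4 were lower and 10 were not called, with a median of -1.01. Elavl3 was 14.4-fold lower, from -0.18 to -4.03, Tubb3 5.57-fold lower, from 2.37 to -0.11, Dcx at least 3.54-fold lower and Stmn2 3.21-fold lower. Map2 stood just under the call in the other direction, at -3.54 in EHe and -1.97 in EHeD14, a ratio of 2.99. Dcx and Elavl3, both made in young neurons, had been higher in EHe than in ES, at least 3.24-fold and 5.07-fold. Against ES, EHeD14 was higher for 2 genes of the list, Neurod1 and Map2, and lower for 3, Dll1, Stmn2 and Tubb3. Neurod1, at -4.61 in EHeD14, was dim in ES, where the detection limit was -5.40, so its bound falls short of 3-fold. In that comparison Elavl3 was not called and Dcx was dim on both arrays. In EHeD7 against EHe 2 genes of the list were higher, Neurod1 and Ebf1, and 3 lower, with a median of -0.31. Neurod1 was at -3.59 and Ebf1 at -3.98 in EHeD7, and both were dim in EHe. With the detection limit of EHe at -4.83, both bounds fall short of 3-fold. Snap25, Isl1, Neurod4, Atoh1 and Nhlh1 were dim on all arrays.

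Of the 9 measurable neural crest genes, 3 were higher in EHeD14 than in EHe and 2 lower. Foxd3 was 9.75-fold and Twist1 3.37-fold higher beside Sox10, and Ngfr was 4.99-fold and Snai2 4.07-fold lower. All 7 genes of the primed epiblast list other than the members were measurable, and 4 were higher and none lower, with a median of 2.51. Left out of this count were its members Otx2 and Pou3f1, both higher, Zic2, 3.65-fold lower, and Zic5, not called. Fgf5 was at least 229-fold higher, from a dim signal in EHe to 3.01, Dnmt3b was 6.35-fold and Sall2 5.71-fold higher, and Foxd3 is shared with the neural crest list. Dnmt3a, Lef1 and Cdh2 were not called. Counting each gene once, 78 genes of the 11 neural and epiblast lists were measurable, of which 19 were higher and 12 lower in EHeD14 than in EHe, with a median of 0.09. Some of these calls rest on a dim signal on 1 array. The bounds of Otx1, Fabp7, Lhx5 and Pax7 fall short of 3-fold, and Sox6 has no fold. The counts were 12 and 7 with normexp, and 5 and 2 among genes well above background on all 5 arrays.

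**Figure D4:**
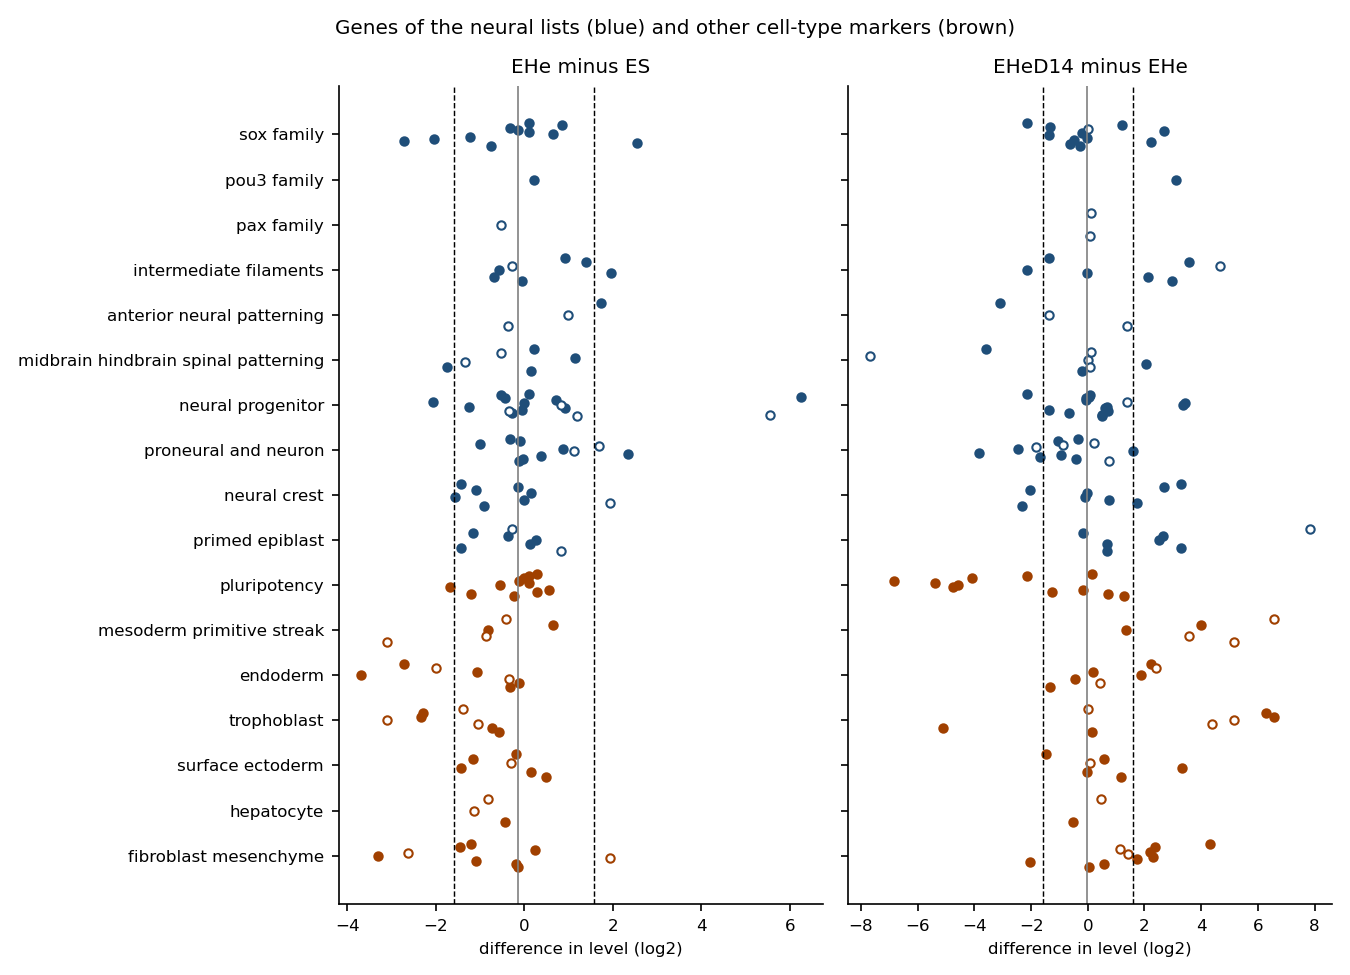
Difference in level (horizontal axis, log2) of single genes of each list for EHe minus ES (left) and EHeD14 minus EHe (right). Filled points were measured on both arrays, open points are bounds, dashed lines mark 3-fold and the grey line the median of all genes. Genes dim on both arrays are not drawn. Nor are genes without a fold against the detection limit, among them the called Apob and Foxf1 (left) and Sox6 (right). Hes5 and Zeb2 lie at the far right of the left panel, and the trophoblast, mesoderm, mesenchyme and primed epiblast lists lean to the right in the right panel.

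Markers of other tissues moved in the same comparison. Of 8 measurable mesoderm and primitive streak genes, 4 were higher in EHeD14 than in EHe and none lower. T (brachyury) was at least 94.6-fold, Hand1 at least 35.5-fold, Eomes 15.9-fold and Gsc at least 11.8-fold higher. Against ES the same 4 genes were higher and Foxf1 was lower. Foxf1, at -4.91 in ES, was dim in EHeD14, where the detection limit was -5.53, so its bound falls short of 3-fold. Hand1 was at -1.73 in ES and dim in EHe, and EHeD14 was 4.15-fold above ES. Each list was also summed as linear level (75th percentile = 1). Signals of different probes do not rank genes by amount, so such a sum describes brightness only. For this list it was 0.749 for ES, 0.347 for EHe, 6.20 for EHeD7, 6.98 for EHeD14 and 0.367 for Hepa1-6. Its markers Mixl1, Evx1 and Kdr were dim everywhere. Of 9 endoderm genes 4 were higher (Foxa2, at least 5.36-fold, Sox17, Gata6, 3.68-fold, and Cer1, at least 1.35-fold). The summed levels of the list were 4.94, 1.41, 1.11, 2.11 and 17.7 in the same order of arrays. Against ES, Cer1 alone of these was higher in EHeD14, while Sox7 and Gata6 were lower. Cer1, at -4.39 in EHeD14, was dim in ES, where the detection limit was -5.40, so its bound falls short of 3-fold. Gata6 was at 1.61 in ES, -2.09 in EHe and -0.21 in EHeD14, 3.53-fold below ES. Of 8 trophoblast genes 5 were higher, led by Krt18 (95.7-fold) and Krt8 (78.6-fold), keratins that are made in many simple epithelia, and Tfap2c was 34.6-fold lower. Cdx2 is among the 5 only on its measured signals, since EHeD14, at -4.83, lay at the detection limit of EHe, and it was not called against ES. The summed levels of the trophoblast list were 22.8, 11.3, 72.1, 103 and 401, and Elf5 was well above background in EHeD7 alone. In EHeD14 and Hepa1-6 nearly all of this summed signal came from the Krt8 and Krt18 probes, which gives no share of transcripts.

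Of the 6 measurable surface ectoderm genes, Grhl2 (10.1-fold) and Krt15 (at least 1.05-fold) were higher and none lower. Against ES, Grhl2 (3.78-fold) and Cdh1 (3.14-fold) were higher in EHeD14 and Krt5 was lower. Krt15, at -4.52 in ES and -4.75 in EHeD14, was not called there. The summed levels were 6.19, 7.27, 21.9, 18.6 and 3.1, and Trp63, Dlx3 and Dlx5 were dim everywhere. Of the 10 fibroblast and mesenchyme genes, 7 were higher, among them Col1a1 (19.6-fold), Col1a2 (5.13-fold), Pdgfrb (4.94-fold) and Thy1 (4.53-fold), and 1 lower. Their summed levels were 16.5, 14.2, 18.2, 19.3 and 23.9. The Acta2 probe, at 3.69 in EHe and 3.73 in EHeD14, gave most of each sum, so the sums mainly report that probe. Against ES 4 were higher (Twist1, Col1a1, Thy1 and Col3a1) and 1 lower, and neither Col1a2 nor Pdgfrb was called. Pdgfrb was at -1.16 in ES, -4.46 in EHe and -2.15 in EHeD14. No hepatocyte gene of the 6 measurable was called, and their summed levels were 0.565, 0.338, 0.590, 0.300 and 238. Of 11 pluripotency genes none was higher and 6 were lower, Esrrb (115-fold), Klf4 (41.4-fold), Tbx3 (27.0-fold), Klf2 (23.8-fold), Zfp42 (16.8-fold) and Sox2. The summed levels of the list were 449, 454, 266, 156 and 31.5. The part of any of these cell types in the member levels was not tested.

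The genes whose profile over the 5 arrays was closest to that of each member were found by the root mean square (RMS) difference of centred levels, dim values being raised to the detection limit, among 7519 genes that spanned at least 3-fold. The genes named depend on the processing, since of the 27 only 4 were named again with normexp, 2 on genes well above background on all 5 arrays, 12 without a filter, 13 by quantile normalization and 16 by the mean of a gene's probes. Nes was closest to Sec14l4 (RMS 0.13 on the log2 scale), Sct (0.19) and Hspa1a (0.22). Pou3f1 was closest to Got1l1 (0.29), Dnmt3b (0.33) and Kcnk1 (0.35), of which Dnmt3b stands in the primed epiblast list. Otx2 had no gene within 0.5 and its nearest were Ripk3 (0.57), Arhgef16 (0.63) and Tnk1 (0.68).

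Zic1 was closest to Lpar4 (0.32), Tac1 (0.35) and Kcnn4 (0.39). Pax6 was closest to the Y-linked Eif2s3y (0.39), Erich3 (0.42) and Kcnmb1 (0.52), genes high in EHe, and 2 genes lay within 0.5 of it. Zic2 was closest to Frat1 (0.16), Pdzph1 (0.26) and Olfr508 (0.26). The flatter profiles matched many genes. Sox1 had 968 genes within 0.5, with Gpr37l1, Brca1 and Usp49 nearest, Zic5 had 981, with Ankrd24, Pfdn6 and Htr5a nearest, and the main probe of Sox11 had 268, with Fam187b, Ccdc153 and Rhobtb3 nearest. Likeness over 5 arrays is a description of these arrays, and the points share the arrays and their scaling.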

How the data were processed

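RNA of 5 cultures, 1 per condition, was measured on 1-colour Agilent mouse arrays. Per the labels the dye was Cy3, while the methods name Cy5. The authors deposited 1 scanner table per array from Agilent Feature Extraction 10.7.3.1, with 45018 spots. The intensity used, the processed signal, had been corrected for background and detrended by that software before the authors deposited it and had not been normalized between arrays. The software's calls of outlier and well-above-background spots, also deposited, were used as other values. The deposited series table held the same intensity. Here control spots and between 73 and 174 outlier spots per array were left out, no gene spot was saturated, and log2 signals were averaged per probe and shifted by each array's 75th percentile. A probe was well above background where most of its spots were. Of 41174 probes, 26888 were named through RefSeq accessions (GRCm38.p6, names and order only) and 14286 were not. A gene was read by its probe well above background on most arrays, ties by mean level. The members, lists and named genes (up to 4 per list with the largest EHeD14 minus EHe difference past 3-fold, and the Sox, Zic, Pou3 and Pax families) were chosen with earlier results of these data known, and other list genes were named after their values were seen. The number of arrays limits the precision. Median SD between repeat spots was 0.07 to 0.10 on the log2 scale, and the software's error about 10.0%. Alternatives were quantile normalization, median centring, normexp (limma 3.58.1, R 4.3.3, offset 50, median spot signal), the series table, dim values at the detection limit, other filters, the mean of a gene's probes, a 2-fold threshold and, added after the data had been seen, Sox11 by its other probes. Some genes of the lists are not reported here and enter no list count. Python 3.11.15, numpy 2.4.6, pandas 2.3.3 and matplotlib 3.10.9 were used.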

Additional observations from a re-analysis of the deposited data

How the results depend on the processing

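No paired analysis was possible because no condition had a second array. Of 31 differences called for a member in the 7 comparisons, 249 of 250 values under 9 alternatives other than the filter on all 5 arrays kept their direction and 231 stayed past the threshold. The exception was Sox11 Hepa1-6 minus ES, which went from 2.27 to -0.52 (both arrays dim) by its other probes, a setting chosen after the data were seen, so that no member was then higher, and the count was likewise 0 by the mean of a gene's probes. The series table gave the same values, and neither a 2-fold threshold nor leaving out the filter on dim probes can end a 3-fold call. None of these settings could therefore reverse or end any of the 31 calls, and the totals of 249 and 231 include all of them. Normexp, whose offset pulls weak signals together, left 1 member higher in EHe than ES (Zic1 lost), 1 lower in EHeD7 and in EHeD14 than in EHe (Zic2 lost), 0 higher and 3 lower in Hepa1-6 than ES (Sox11, Sox1, Pax6 and Zic2 lost), and 12 list genes higher and 7 lower in EHeD14 than EHe. EHeD14 was lower than ES for 1 member by quantile normalization or median centring and 2 at 2-fold, and the cause was not tested. Only Nes and the main Sox11 probe were well above background on all 5 arrays. Restricted to them by construction, 0 members were higher and 0 lower in EHe than ES, 1 higher and 0 lower in EHeD7 and in EHeD14 than EHe, 2 higher in EHeD14 than ES, 1 higher in EHeD14 than Hepa1-6, 1 higher and 1 lower in Hepa1-6 than ES, and 5 list genes were higher and 2 lower in EHeD14 than EHe. Of the 27 genes named as closest to the members, 16 were named again by the mean of a gene's probes, 12 without a filter, 13 by quantile normalization, 4 by normexp and 2 on all 5 arrays. Centring on the median moved the median difference of all genes by 0.76 for Hepa1-6 minus ES, -0.77 for EHeD14 minus Hepa1-6, 0.13 for EHe minus ES, -0.17 for EHeD7 minus EHe and -0.14 for EHeD14 minus EHe, and quantile normalization moved the first 2 by 0.22 and -0.15.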
